A study of Homo sapiens with 6 samples.

Results

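Tight junctions seal the space between neighbouring epithelial cells and mark the border between the apical and the basolateral membrane. Claudins form the sealing strands, the MARVEL-domain proteins occludin and tricellulin shape them, and the ZO scaffold proteins tie them to actin. The genes described here are 9 named tight junction components: CLDN1, CLDN3, CLDN4, CLDN7, OCLN, MARVELD2, TJP1, TJP3 and F11R. A gene was measured where a probe set carried its symbol and no other symbol in the platform annotation, which held for 7 of the 9, out of 18417 genes in all. OCLN, which encodes occludin, has 1 probe set that also carries the symbol of its pseudogene OCLNP1, and F11R, which encodes the adhesion molecule JAM-A, is named by 0 probe sets of the annotation used here, so neither was analysed here.

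The tested cells were MCF10A labelled RB-deficient (titles tagged miRB, 3 arrays), and the cells they were set against were MCF10A labelled RB-proficient (titles tagged miNS, 3 arrays). MCF10A is an established line of non-tumorigenic human breast epithelium that is known to assemble few tight junctions in standard culture. Both groups carried ErbB2, a receptor tyrosine kinase, per the series title, and both grew for 7 days as 3-D cultures in reconstituted membrane, so the comparison asked how expression differs with the state of the retinoblastoma protein RB. The labels do not spell out the tags, nor say whether replicates came from separate cultures or clones, so a p-value covers only the spread between these arrays, which may be technical.

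RB1, the gene behind the group names, had log2 intensities of 3.45, 5.09 and 6.04 in arrays 1 to 3 labelled RB-deficient, against 7.01, 5.77 and 7.65 in the RB-proficient arrays. The groups overlapped for RB1, so each direction below rests on the labels. Across genes, Pearson's r between arrays was 0.673 to 0.753 among those labelled RB-deficient and 0.901 to 0.924 among RB-proficient ones, and the number of arrays limits the precision. Array 3 labelled RB-deficient lay nearer to the RB-proficient arrays (r of 0.832 to 0.882) than to its own group (0.713 and 0.753), while arrays 1 and 2 labelled RB-deficient stood apart from all others (highest r 0.715 and 0.755). Over all genes the median difference was −0.21, against −0.09 under quantile normalization and −0.08 under centring. The reference genes ACTB and GAPDH differed by −1.92 and −1.23, and ERBB2 by −1.31. Of the markers of mammary epithelium chosen for this comparison, 6 of 8 were measured, and 5 of these 6 had the lower mean in arrays labelled RB-deficient, with a median difference of −1.30. The basal keratin gene KRT5 differed by −2.40, the E-cadherin gene CDH1 by −1.54, KRT8 by −1.33, KRT18 by −1.27 and KRT14 by −0.71. The groups overlapped for KRT5 and KRT14. The exception EPCAM, an epithelial surface adhesion protein, had log2 intensities of 10.39, 10.35 and 10.08 in arrays 1 to 3 labelled RB-deficient, against 10.06, 9.99 and 10.06 in the RB-proficient arrays. None of the 6 markers reached the floor in any array. The summed linear signal of the 6 epithelial markers ran from 1940 to 2780 in the arrays labelled RB-deficient, against 2800 to 5700 in the RB-proficient arrays. The sums were 158 to 283 against 162 to 220 for 7 fibroblast markers, of which COL3A1 and THY1 were at the floor in array 1 labelled RB-deficient, 322 to 414 against 508 to 624 for 6 endothelial markers, and 215 to 279 against 347 to 475 for 6 leukocyte markers. By gene, 3 endothelial markers were lower and 3 higher (median difference −0.18), as were 3 and 3 leukocyte markers (median −0.08). CDH5 (−0.86) and CD68 (−1.16) gave the largest part of the endothelial and leukocyte sums. Both groups were MCF10A, an epithelial line, so the fibroblast, endothelial and leukocyte sums are not counts of such cells. The part of these markers in the results was not tested. In bulk RNA, fewer cells with a marker and less RNA per cell cannot be told apart.

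Values are log2 intensities after scaling the arrays to one median, with a floor of 1 before the log, and a difference is RB-deficient minus RB-proficient on that scale, with n = 3 per group. The level of one probe set cannot be set against that of another. CLDN7, MARVELD2 and TJP1 lay lower in all 3 arrays labelled RB-deficient than in any RB-proficient array with this scaling, CLDN1 and CLDN3 had lower means with overlap, and CLDN4 and TJP3 had higher means with overlap. None of the 7 passed limma's test at an adjusted p of 0.05 over all 18417 genes, where 0.00543% of genes passed (FN1, the fibronectin gene). At an unadjusted p under 0.05, 1 of the 7 was lower, against 10.8% of all genes, and 0 were higher, against 2.85%. The 3 genes without overlap stand against 15.3% of all genes lower without overlap, 7.12% higher and 22.4% in either direction. After quantile normalization 0 of the 7 were free of overlap, against 13.4% of all genes lower without overlap and 8.47% higher. With centring on each array's gene median it was also 0 of the 7, against 12.4% and 9.73%.

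The promoters of the 3 genes without overlap are shown with that of CLDN4, the gene with the highest difference, because the Snail and ZEB repressors of epithelial genes are known to bind the E-box CAGGTG. All are from RefSeq on GRCh38.p14, from 250 bases before to 50 after an annotated start, 5′ to 3′ in the direction of the gene, and capitals mark CAGGTG or its reverse complement CACCTG. All 7 measured genes had at least 1 window, 12 in all. CLDN7 and TJP1 have further windows that are not shown and that hold no such match.
CLDN7 (chr17:7262429-7262728, minus strand): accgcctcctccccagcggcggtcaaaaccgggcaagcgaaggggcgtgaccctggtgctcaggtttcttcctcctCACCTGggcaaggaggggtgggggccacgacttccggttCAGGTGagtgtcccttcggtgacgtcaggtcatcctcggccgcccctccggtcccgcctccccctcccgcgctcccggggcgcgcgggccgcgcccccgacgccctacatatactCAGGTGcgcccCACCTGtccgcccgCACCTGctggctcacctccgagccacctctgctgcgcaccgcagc
TJP1 (chr15:29969000-29969299, minus strand): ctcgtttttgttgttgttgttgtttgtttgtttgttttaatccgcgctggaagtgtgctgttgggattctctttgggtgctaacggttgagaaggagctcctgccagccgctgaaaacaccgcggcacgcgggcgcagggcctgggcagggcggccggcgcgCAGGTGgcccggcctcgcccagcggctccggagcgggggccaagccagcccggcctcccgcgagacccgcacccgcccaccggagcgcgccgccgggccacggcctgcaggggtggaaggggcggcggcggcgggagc
MARVELD2 (chr5:69414866-69415165, plus strand): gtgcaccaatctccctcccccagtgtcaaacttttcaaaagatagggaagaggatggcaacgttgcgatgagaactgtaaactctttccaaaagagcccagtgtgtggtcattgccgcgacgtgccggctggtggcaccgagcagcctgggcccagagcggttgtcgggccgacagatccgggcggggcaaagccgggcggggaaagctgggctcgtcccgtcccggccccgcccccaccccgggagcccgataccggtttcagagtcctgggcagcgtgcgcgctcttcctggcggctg
CLDN4 (chr7:73830746-73831045, plus strand): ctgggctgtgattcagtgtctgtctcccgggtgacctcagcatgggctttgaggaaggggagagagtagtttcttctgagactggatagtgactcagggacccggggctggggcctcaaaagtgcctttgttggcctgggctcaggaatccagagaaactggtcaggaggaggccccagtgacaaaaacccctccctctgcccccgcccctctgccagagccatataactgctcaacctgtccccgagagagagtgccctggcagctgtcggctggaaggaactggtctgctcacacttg
The CLDN7 window holds 5 matches, the TJP1 window 1, and the MARVELD2 and CLDN4 windows 0. Of 35116 RefSeq promoter windows of this length, 20.6% hold at least 1 match and 0.094% hold 5 or more. CLDN3 and TJP3 also have a window with 1 match, so 4 of the 12 windows hold one. Of the genes with such a window, CLDN3, CLDN7 and TJP1 had lower means. TJP3 had a higher mean with overlap, and its sign turned without array 2 labelled RB-deficient. A match is a description of the letters, not of binding, and its relation to the differences was not tested. The E2F letters TTTGGCGC and TTTCCCGC (either strand, in 2.27% of windows) and the grainyhead letters AACCGGTT (in 0.134%) are in 0 of the 12 windows.

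The claudins are the membrane proteins whose extracellular loops seal the junction. CLDN7 encodes a claudin that is known to bind EpCAM. It gave log2 intensities of 4.83, 6.54 and 6.35 in arrays 1 to 3 labelled RB-deficient, against 7.23, 8.51 and 6.68 in the RB-proficient arrays. All 3 RB-deficient values lay below the lowest RB-proficient value, array 1 labelled RB-deficient was by far the lowest, and RB-proficient array 2 was the highest. The means were 5.91 ± 0.94 (SD) and 7.47 ± 0.94 (SD), a difference of −1.57 (SE 0.67, 95% interval −3.07 to −0.06), or 2.96-fold lower, with an adjusted p of 0.349. Without array 1 labelled RB-deficient the difference was −1.03, and without RB-proficient array 2 it was −1.05.

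CLDN4 encodes a sealing claudin that is a receptor for Clostridium perfringens enterotoxin. Its log2 intensities were 7.12, 6.87 and 7.40 in the arrays labelled RB-deficient, against 6.32, 7.12 and 6.29 in the RB-proficient arrays. RB-proficient array 2 lay inside the RB-deficient range and the other two below it. The difference was 0.55 (SE 0.50, 95% interval −0.56 to 1.67, adjusted p 0.637). It stayed above 0 in each of 20 alternative settings, from 0.41 to 0.83. Some of these settings change only the variance or the adjustment and cannot turn a sign.

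CLDN3, another enterotoxin receptor, is the neighbour of CLDN4 on chromosome 7, with 0 protein-coding genes between them in the RefSeq table. CLDN3 gave 6.23, 5.13 and 5.71 in the arrays labelled RB-deficient, against 6.11, 5.59 and 6.01 in the RB-proficient arrays, with array 1 labelled RB-deficient the highest of all 6. The difference was −0.21 (SE 0.51, adjusted p 0.869), equal to the median over all genes at this rounding. The within-array log2 ratio of CLDN3 to CLDN4 gave −0.89, −1.75 and −1.69 in the arrays labelled RB-deficient, against −0.21, −1.54 and −0.28 in the RB-proficient arrays. The mean of this ratio differed by −0.77 between the groups, which overlapped (exact permutation test, two-sided, p = 0.2, and adjusted p = 0.6 over 21 pairs).

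CLDN1, whose product is required for the epidermal barrier in mice, varied most of the 4 claudins described. It gave 7.87, 10.35 and 10.52 in the arrays labelled RB-deficient, against 10.79, 10.73 and 8.80 in the RB-proficient arrays. Each group thus held 1 low array, array 1 labelled RB-deficient and RB-proficient array 3, and the other 4 lay between 10.35 and 10.79. The difference was −0.53 (SE 0.83, 95% interval −2.39 to 1.34, adjusted p 0.798). Without array 1 labelled RB-deficient it was 0.33, and without RB-proficient array 3 it was −1.18.

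**Figure D1:**
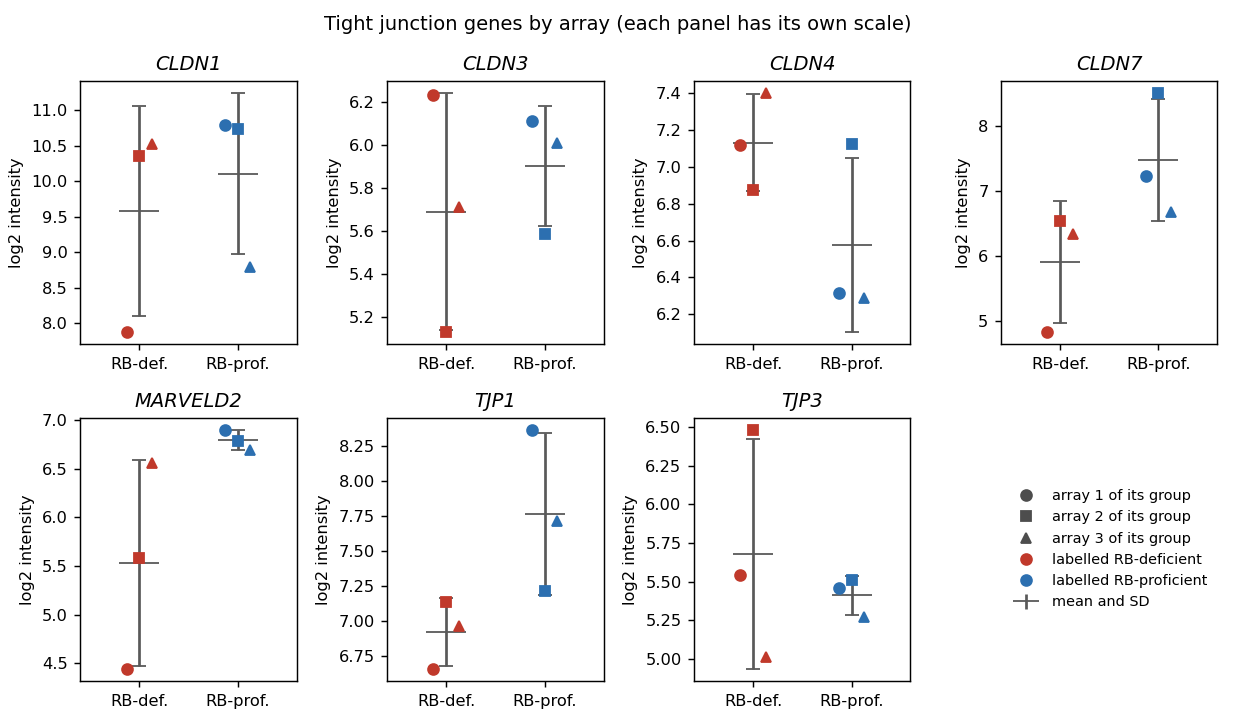
Log2 intensity of the 7 measured tight junction genes in each array (points, shape by array number), with the mean and SD of each group, arrays labelled RB-deficient on the left of each panel and RB-proficient arrays on the right. With scaling to a median the groups are apart for CLDN7, MARVELD2 and TJP1 and overlap for the other 4 genes, and with quantile normalization or centring they overlap for all 7. CLDN1, CLDN7, MARVELD2 and TJP1 are lowest in array 1 labelled RB-deficient.

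MARVELD2 encodes tricellulin, a MARVEL-domain protein of the corners where 3 cells meet. The annotation gives it 2 probe sets, whose values were identical in all 6 arrays and count as 1 measurement. Its log2 intensities were 4.44, 5.58 and 6.56 in arrays 1 to 3 labelled RB-deficient and 6.90, 6.79 and 6.70 in the RB-proficient arrays. The RB-proficient arrays agreed closely (SD 0.10), the RB-deficient arrays spread widely (SD 1.06), and array 3 labelled RB-deficient came within 0.24 of the RB-proficient mean. The difference was −1.27 (SE 0.60, 95% interval −2.62 to 0.08), or 2.41-fold lower, with an adjusted p of 0.385. Without array 1 labelled RB-deficient it was −0.73. OCLN lies beside MARVELD2 on chromosome 5, with 0 protein-coding genes between them, but its level was not analysed here.

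Scaffold proteins of the junction's cytoplasmic plaque were represented by TJP1 and TJP3. TJP1 encodes ZO-1, which binds claudin tails, occludin and actin. Its log2 intensities were 6.66, 7.14 and 6.96 in the arrays labelled RB-deficient, against 8.36, 7.21 and 7.71 in the RB-proficient arrays. The highest RB-deficient and the lowest RB-proficient value were nearly level, so the groups were apart by a narrow margin. The means were 6.92 ± 0.24 (SD) and 7.76 ± 0.58 (SD), a difference of −0.84 (SE 0.51, 95% interval −1.99 to 0.30, adjusted p 0.488), and without RB-proficient array 1 the TJP1 difference was −0.54. TJP3, which encodes the related scaffold ZO-3, gave 5.55, 6.48 and 5.01 in the arrays labelled RB-deficient, against 5.46, 5.51 and 5.27 in the RB-proficient arrays. The RB-deficient arrays lay on both sides of the RB-proficient ones. The TJP3 difference was 0.27 (SE 0.53, adjusted p 0.841), and it was −0.13 without array 2 labelled RB-deficient.

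**Figure D2:**
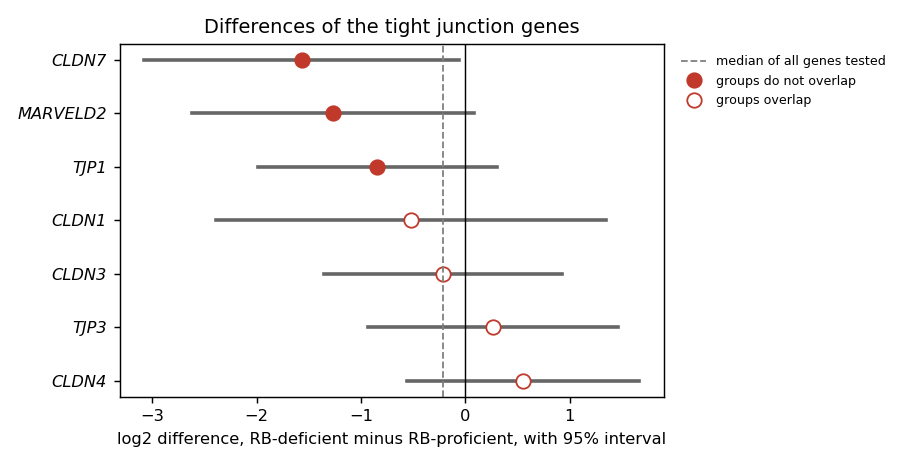
Log2 difference (RB-deficient minus RB-proficient) of each measured tight junction gene with its 95% interval from limma, filled where the 3 values of each group do not overlap with scaling to a median (none with quantile normalization or centring). The estimates run from −1.57 for CLDN7 to 0.55 for CLDN4. The interval of CLDN7 ends at −0.06 and the other 6 include 0, and the dashed line marks the median of all genes, −0.21.

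The 7 genes did not share one pattern over the arrays. Their median difference was −0.53, or −0.31 relative to all genes, and 5 of the 7 lay below 0, against 58.6% of all genes. With the dimmest 50% of genes left out all 7 remained, and the median of the genes kept was −0.31. Relative to those brighter genes the median of the 7 was −0.22. Relative to all genes the median of the 7 rested on single arrays: it was 0.03 without RB-proficient array 1, −0.13 without RB-proficient array 2 and −0.75 without array 2 labelled RB-deficient. With arrays 1 and 2 labelled RB-deficient left out, which sets a single array against 3, it was −0.10, and the differences were −1.12 for CLDN7, −0.80 for TJP1 and −0.24 for MARVELD2. Set against each gene's RB-proficient mean, the median of the 7 was −1.11, −0.63 and −0.24 in arrays 1, 2 and 3 labelled RB-deficient, while the median of all genes was −0.14, −0.37 and −0.14. Array 1 labelled RB-deficient held the lowest value of 4 of the 7 genes and the highest of 1. That array had the lowest median deposited intensity, 21.4 against up to 28.0 in the others, and 4.71% of its genes at the floor, against 0.326% to 1.62% elsewhere. No tight junction gene was at the floor in any array. The part of this array's signal in the result was not tested.

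Ratios between genes within an array do not depend on scaling the array to a median. Of the 21 pairs among the 7 genes, 3 had log2 ratios whose groups did not overlap, a share below the 21.0% of all pairs of genes. The 3 pairs share CLDN4 and CLDN7, so they are not separate results. CLDN4 over CLDN7 gave 2.29, 0.33 and 1.05 in the arrays labelled RB-deficient, against −0.91, −1.39 and −0.39 in the RB-proficient arrays. The mean of this ratio differed by 2.12 between the groups. CLDN4 over MARVELD2 gave 2.68, 1.29 and 0.84 against −0.59, 0.33 and −0.41. CLDN7 over TJP3 gave −0.72, 0.06 and 1.34 against 1.77, 3.00 and 1.41. Each of these 3 pairs had an exact two-sided permutation p of 0.1 and an adjusted p of 0.6 over the 21 pairs. A p of 0.1 is the smallest that 3 against 3 arrays allow, however large the shift. The permutation test therefore cannot decide whether the 2 genes of any pair responded unequally.

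**Figure D3:**
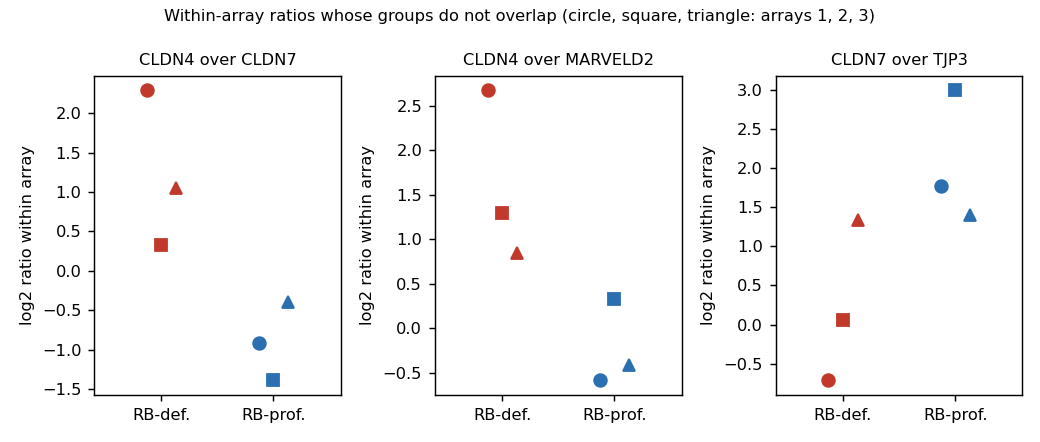
Within-array log2 ratio of 2 tight junction genes for the 3 pairs whose groups do not overlap, with arrays labelled RB-deficient on the left and RB-proficient arrays on the right of each panel, shape by array number. CLDN4 over CLDN7 lies above 0.3 in all arrays labelled RB-deficient and below −0.3 in all RB-proficient arrays. The height of a ratio depends on the probe sets, so only the shift between the groups can be read. The 3 pairs were picked from 21 for their lack of overlap, which 21.0% of all pairs of genes show.

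Other genes of the junction came from lists written with earlier results of these data known, and 0 genes of these lists passed adjusted p 0.05 over all genes with the floor of 1 (ACTB passed with an offset of 16, adjusted p 0.0393). For each list below, the shares to compare over all genes are 58.6% lower, 15.3% lower without overlap and 7.12% higher without overlap. Counts without overlap are those with scaling to a median. Of the 19 other claudins measured, 12 were lower and 7 higher (63.2% lower, near the share of all genes), and 2 lay lower and 1 higher without overlap. Their median difference was −0.36, but −0.06 for a floor of 16 and −0.16 for the offset of 16. CLDN10, an ion-pore claudin, differed by −1.43 (SE 0.55), CLDN18, a claudin of stomach and lung, by −1.03 (SE 0.50) and CLDN8, a claudin of the distal nephron and colon, by −1.43 (SE 0.84), the last with overlapping groups. CLDN10 was dim, at log2 intensities of 1.45 to 2.24 in the arrays labelled RB-deficient, against 2.64 to 4.05 in the RB-proficient arrays, so its size depends on the floor, and with an offset of 16 the differences were −0.41 for CLDN10, −0.60 for CLDN18 and −0.86 for CLDN8.

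Among 10 other membrane proteins of the junction 7 were lower, 2 of them without overlap, and 5 were lower with centring, where their median turned from −0.11 to 0.03. MARVELD3, the remaining gene of the tight junction MARVEL family beside OCLN and MARVELD2, had 2.71, 3.15 and 3.64 in the arrays labelled RB-deficient against 4.78, 6.40 and 5.43 in the RB-proficient arrays. The groups of MARVELD3 were well apart, with a difference of −2.37 (SE 0.57, adjusted p 0.209), which was −1.54 for a floor of 16 and −1.34 for the offset of 16. CXADR, the coxsackievirus and adenovirus receptor, differed by −1.26 (SE 0.56), also without overlap, and JAM3, an adhesion molecule related to JAM-A, by −1.34 (SE 0.67) with overlap. With an offset of 16 these were −0.84 and −0.57.

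Plaque proteins were lower for 10 of 12 genes, with a median difference of −1.03, or −0.82 relative to all genes, and 3 of them lay lower without overlap. With an offset of 16 that median was −0.59, or −0.51 relative to all genes. TJAP1, a protein known to localize to tight junctions, differed by −2.84 (SE 0.84) and was at the floor in array 1 labelled RB-deficient, so that size depends on the floor, and it was −0.89 with a floor of 16. YBX3, the Y-box factor known to bind ZO-1, had 7.95, 5.04 and 6.92 in the arrays labelled RB-deficient against 8.18, 8.74 and 9.17 in the RB-proficient arrays, a difference of −2.06 (SE 0.74, adjusted p 0.282). PATJ, a polarity scaffold that binds ZO-3 and claudins, differed by −1.45 (SE 0.63) with overlap.

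Adherens junction partners were lower for 9 of 10 genes, with a median of −1.31, and 6 (60.0%) lay lower without overlap. AFDN, the afadin scaffold that links nectins to actin and binds ZO-1, had 4.20, 4.50 and 5.09 in the arrays labelled RB-deficient against 6.40, 6.27 and 6.57 in the RB-proficient arrays. The AFDN groups were well apart, with a difference of −1.82 (SE 0.49, adjusted p 0.213), which was −1.32 with an offset of 16. CTNNA1, the alpha-catenin gene, differed by −1.65 (SE 0.54), and ACTB, which encodes the actin both junctions bind, is a member of this list with the value given above.

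Of 14 genes of junction traffic and contractility 8 were lower (57.1%, below the share of all genes) and 4 (28.6%) lower without overlap, with a median of −0.37. PRKCZ, an atypical protein kinase C of the apical polarity complex, differed by −2.43 (SE 0.65, adjusted p 0.213), or by −1.66 with an offset of 16. ARHGEF18, an exchange factor for RhoA at the junction, differed by −2.17 (SE 1.00) with a value of 1.30 in array 1 labelled RB-deficient (−1.27 with a floor of 16), and RAB13, a small GTPase of junction protein traffic, by −1.04 (SE 0.51).

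**Figure D4:**
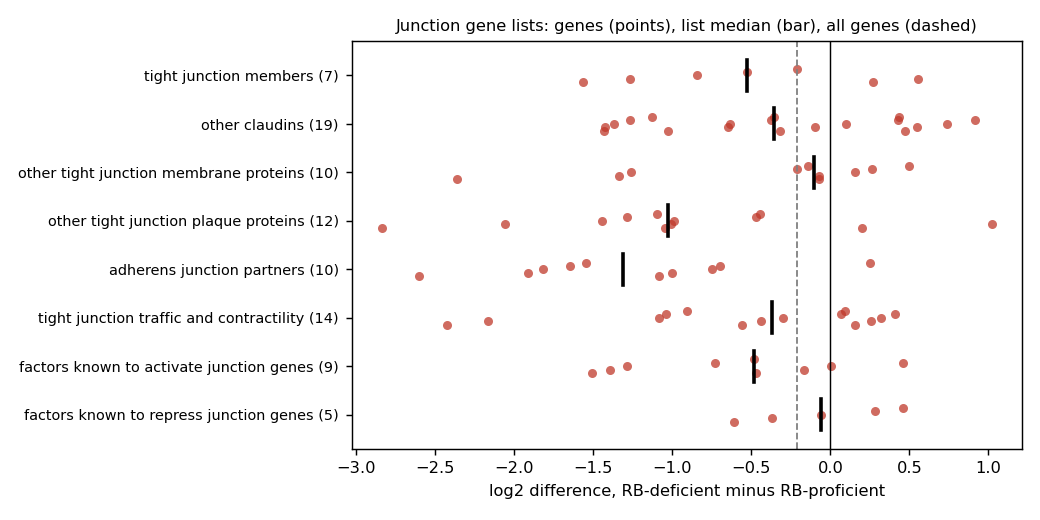
Log2 differences (RB-deficient minus RB-proficient) of single genes in the tight junction genes and 7 related lists, with the number measured in brackets, list medians as bars and the median of all genes dashed. List medians run from −1.31 for adherens junction partners to −0.06 for repressors. The plaque and adherens lists lie farthest to the left.

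Transcription factors known to act on junction genes were set beside these values. Among 9 measured factors known to activate epithelial or junction genes, 7 were lower, with 3 lower and 1 higher without overlap. GRHL2, a grainyhead factor known to activate CLDN4 in mice, had 6.10, 6.23 and 7.71 in the arrays labelled RB-deficient against 7.92, 8.47 and 8.19 in the RB-proficient arrays. GRHL2 was lower without overlap, with a difference of −1.51 (SE 0.57, adjusted p 0.296). A link between GRHL2 and CLDN4 in these cells was not tested. GRHL3 differed by −1.39 (SE 0.53), also without overlap, and ELF3, an epithelial ETS factor, by −1.29 (SE 0.71) with overlapping groups. The 5 repressors all had overlapping groups, and their median of −0.06 turned to 0.19 after quantile normalization. SNAI2, which encodes Slug, had 7.45, 7.17 and 7.28 in the arrays labelled RB-deficient against 7.70, 7.33 and 7.98 in the RB-proficient arrays, SNAI1 differed by 0.46 (SE 0.57) and ZEB2 by −0.61 (SE 0.60).

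The mean centred profile of the 7 genes stood at −0.79, −0.02 and 0.04 in the arrays labelled RB-deficient, against 0.42, 0.46 and −0.11 in the RB-proficient arrays. Array 1 labelled RB-deficient thus set most of its range. Over the 6 arrays, and among 17155 other genes above the floor on all of them, the 5 genes at the smallest root mean square distance from it were PRRC2C (0.086), NUS1 (0.087), RYBP (0.092), ARHGEF12 (0.125) and AFF4 (0.134). The 7 genes themselves lay at distances of 0.441 for TJP1 to 0.753 for CLDN1, so the mean profile describes none of them closely.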

How the data were processed

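Single-channel arrays of total RNA were made from 6 samples. Cells were lysed with their matrix in RNA-STAT-60, per the labels' protocols, and RNA was amplified with the WT-Ovation Pico system. Affymetrix Expression Console 1.1 was used, per the submitters' processing notes. How the authors summarised, background-corrected and normalized the arrays is not stated in the labels or the file. The authors deposited linear intensities, 1 per probe set and array, from 3.53e-05 to 7075, with array medians of 21.4 to 28.0.

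From these, each array was scaled to the median of the array medians, a floor of 1 was set, and values went to log2. Of 33297 probe sets, 19460 carried 1 symbol, 1754 several and 12083 were not listed. Where a gene had several, the probe set with the highest mean was used. The groups were compared two-sided with lmFit and eBayes of limma 3.58.1 (R 4.3.3) over 18417 genes, with Benjamini-Hochberg adjustment. The comparison was tested on simulated data, drawn with the same SD per gene in both groups. In the data the median SD over genes was 0.84 in the arrays labelled RB-deficient and 0.40 in the RB-proficient arrays. The effect of this unequal spread on the p-values and intervals was not tested. Named genes were the 7 measured tight junction genes, up to 3 with the smallest p per related list, RB1, ERBB2, ACTB, GAPDH, the markers and the 5 nearest profiles. Members and lists were chosen with earlier results of these data known. Probe sets with several symbols were left out, detection calls were not used, and no array duplicated another. Same-numbered arrays deviated with correlations of −0.124, 0.0739 and −0.109, so no pairing was used. Alternatives are given in the closing section.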

Additional observations from a re-analysis of the deposited data

How the results depend on the processing

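The 7 tight junction genes held 0 calls at adjusted p 0.05 in each of 20 alternative settings, and 4 or 5 of them lay below 0 in each. One of the settings leaves out the arrays labelled RB-deficient 1 and 2, so that group is a single array assumed to vary like the others, and its lack of calls says little. The lowest adjusted p in any setting was 0.138, for MARVELD2. The count over all genes, 1 as reported, was 0 after quantile normalization, without the dimmest 25% of genes, with all probe sets in the adjustment and without the arrays labelled RB-deficient 1 and 2. It was 4 without the dimmest 50%, 58 with a floor of 16, 61 with eBayes with trend and robust, 193 with an offset of 16, and 0 to 4 with single arrays left out (4 without array 3 labelled RB-deficient, 0 without any other). The median difference of the 7 genes ran from −0.91 (without array 2 labelled RB-deficient) to −0.18 (without RB-proficient array 1) with single arrays left out, was −0.87 without array 3 of either group, and was −0.24 without the arrays labelled RB-deficient 1 and 2. Without those 2 arrays CLDN1 turned to 0.41 and TJP3 to −0.40. Relative to all genes the median ran from −0.75 to 0.03 with single arrays left out. With single arrays left out CLDN1 ran from −1.18 to 0.33, CLDN3 from −0.48 to 0.068 and TJP3 from −0.13 to 0.60, the sign turning only without array 1 (CLDN1) or array 2 (CLDN3, TJP3) labelled RB-deficient. CLDN4, CLDN7, MARVELD2 and TJP1 kept their signs in all 20. Settings that change only the variance, the adjustment or the other genes tested cannot turn a sign. The replicate number as a block cannot change a difference when each number occurs once per group, so the median stayed at −0.53. The block changed no call. Without scaling, TJP1 alone of the 7 was lower without overlap, against 16.1% of all genes. CLDN7, TJP1 and MARVELD2 were with a floor of 16 (13.8% of all genes) and with an offset of 16 (15.3%). The cause of these shifts was not tested beyond fewer genes or arrays, and without detection calls it is not known which probe sets lay above background.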
